A study of Rattus norvegicus with 35 samples.

Results

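miR-210-3p and miR-210-5p are the mature microRNAs (miRNAs) cut from the opposite arms of the miR-210 hairpin, and they are the 2 rows of that name among the 763 mature rat miRNAs counted in liver. Both were detected in every library, and both were among the 328 miRNAs that passed the filter on low counts. Livers came from Sprague-Dawley rats, all male and 6 weeks of age, which received oral ketoconazole, an azole antifungal that inhibits fungal sterol synthesis and can cause liver injury in people. The vehicle, 0.5% methylcellulose, was given to controls, and ketoconazole was given at 10 mg/kg per day (low dose), 30 mg/kg per day (middle dose) or 100 mg/kg per day (high dose). Dosing lasted 3, 7 or 14 days, with the liver collected 24 h after the final dose. Control day 14 had 2 libraries and each of the other 11 dose-by-day groups had 3, which makes 35. The labels do not say that the replicates are separate rats, so p-values here refer only to variation among these libraries, part or all of which may be technical.

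A miRNA hairpin is cut by Drosha and Dicer into a short duplex, and one strand of the duplex is usually kept in an Argonaute protein, where it represses messenger RNAs that pair with its seed. In most cells miR-210-3p is the kept strand and miR-210-5p is the scarce one. miR-210 is the best known miRNA target of hypoxia-inducible factor (HIF), the transcription factor that builds up when oxygen is low, and miR-210-3p is known to lower the iron-sulfur cluster scaffold ISCU and, with it, mitochondrial respiration.

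The sequences are shown because the arms differ in seed and so in the messages they can pair with. They are RefSeq's, on rat assembly GRCr8, with the seed (bases 2 to 8 from the 5′ end) in capitals:

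miR-210-3p: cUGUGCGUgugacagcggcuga

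miR-210-5p: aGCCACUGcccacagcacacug

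miR-210-3p lies at chr1:205755946-205755967 and miR-210-5p at chr1:205755984-205756005, both on the minus strand. Each is 22 bases long with 14 G or C, or 63.6%. None of the other mature miRNAs among the 724 in the RefSeq table has either seed. The whole hairpin, with both arms in capitals, shows their places:

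miR-210 hairpin: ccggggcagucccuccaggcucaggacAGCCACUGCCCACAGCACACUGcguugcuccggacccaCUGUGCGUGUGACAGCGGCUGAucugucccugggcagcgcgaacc

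The hairpin is 110 bases long at chr1:205755923-205756032, minus strand, and 68.2% of its bases are G or C. miR-210-5p occupies bases 28 to 49 and miR-210-3p bases 66 to 87, with 16 bases between them. In the minimum free energy fold (-46.5 kcal/mol), 18 of the 22 bases of miR-210-5p were paired, 16 of them with bases of miR-210-3p.

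Library totals ran from 2665943 to 9665416 counts, with a median of 3758063. Levels are given as CPM, read counts per 1000000 counts of the scaled library. The first principal component of log2 CPM held 46.2% of the variance and split the libraries. The 14 control libraries and low dose libraries of days 3 and 14 lay between -14.49 and -4.32. The other 21, those of the middle dose, the high dose and low dose day 7, lay between 4.24 and 6.47. The low dose on day 7 therefore stood on the side of the higher doses on this component, and results on the low dose are given below with day 7 apart.

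At the middle and high doses miR-210-5p fell while miR-210-3p did not pass the test. Averaged over the 3 days, the level of miR-210-5p at the low dose could not be told from control, while it stood at 0.533 of control at the middle dose and at 0.417 of control at the high dose. The share of hairpin reads that came from the 5p arm was lower at both of those doses. On day 7 the low dose libraries lay within the range of the 8 controls of all days for miR-210-5p and for the 5p share, and beside the higher doses on the first principal component. Against the day 7 controls alone, 2 of these 3 libraries lay below all controls for miR-210-5p.

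miR-210-3p averaged 171.1 CPM over all libraries, which placed it at number 113 of the 328 tested miRNAs, and it had 401 to 1586 reads in each library. miR-210-5p averaged 7.24 CPM, number 257 of 328, and had 9 to 56 reads in each library. The scarce arm is therefore measured on few reads, and the intervals below carry that counting error as well as the spread between libraries.

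On day 3, miR-210-5p stood at 9.22, 10.2 and 5.72 CPM in controls, 10.3, 10.5 and 9.80 CPM at the low dose, 4.34, 5.75 and 6.76 CPM at the middle dose, and 5.18, 6.30 and 4.70 CPM at the high dose. One of the 3 middle dose and 2 of the 3 high dose libraries lay below every day 3 control, so the ranges overlapped. On day 7 the values were 10.3, 12.2 and 14.0 CPM in controls, 12.0, 10.1 and 9.09 CPM at the low dose, 6.26, 5.05 and 5.75 CPM at the middle dose, and 2.79, 3.30 and 2.74 CPM at the high dose. All middle and high dose libraries of day 7 lay below the 3 controls and below the 3 low dose libraries, and the high dose lay below the middle dose. Of the 3 low dose libraries of day 7, 2 lay below the controls of that day. On day 14 they were 6.25 and 13.0 CPM in controls, 8.18, 5.34 and 10.3 CPM at the low dose, 5.24, 4.21 and 4.80 CPM at the middle dose, and 3.38, 5.80 and 4.45 CPM at the high dose. All middle and high dose libraries of day 14 lay below both controls, which themselves stood far apart.

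By group mean, high dose day 7 was the lowest for miR-210-5p at 2.94 ± 0.31 CPM and control day 7 the highest at 12.2 ± 1.85 CPM (SD, n = 3 each). The groups of the middle and high doses took the 6 lowest places of the 12. The library range of high dose day 7 did not overlap that of the next group in the order, high dose day 14 at 4.55 ± 1.21 CPM (SD, n = 3). The library ranges of all other neighbours in the order overlapped.

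**Figure D1:**
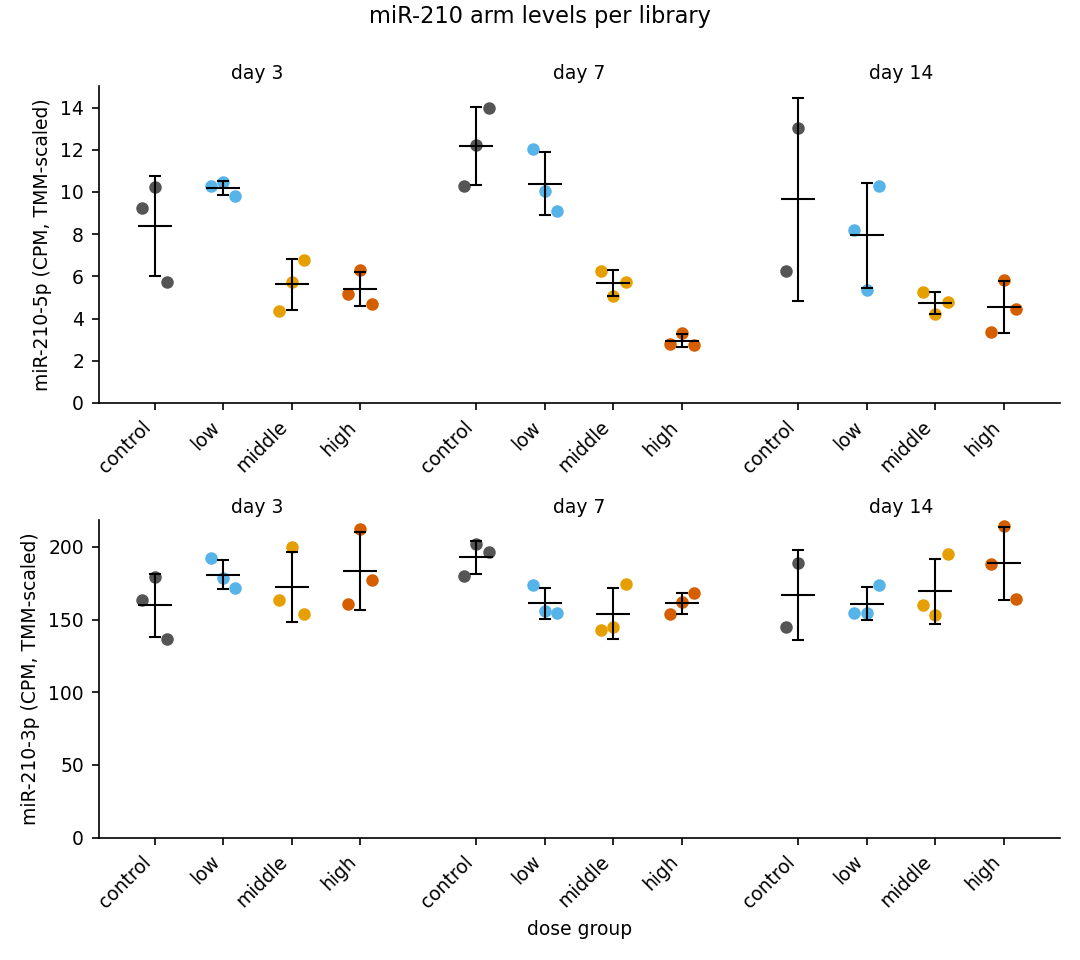
CPM of miR-210-5p (upper panel) and miR-210-3p (lower panel) in every library, by day and dose; dots are libraries, and bars are the group mean and SD. The middle and high dose libraries of miR-210-5p lie between 2.74 and 6.76 CPM, while miR-210-3p overlaps between doses over all days.

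Averaged over days, the low dose difference of miR-210-5p from control was -0.08 ± 0.15 on the log2 scale (estimate ± SE derived from the edgeR F-test, 9 against 8 libraries, 95% interval -0.39 to 0.23, adjusted p 0.736). miR-210-5p fell by 0.91 ± 0.16 at the middle dose (95% interval -1.24 to -0.58, adjusted p 1.52e-05). It fell by 1.26 ± 0.17 at the high dose (95% interval -1.60 to -0.92, adjusted p 1.00e-07). Many miRNAs were lower at these doses: 6.1% of the 328 tested passed in that direction at the low dose, 29.9% at the middle dose and 31.4% at the high dose. Over all 9 libraries per dose, 1 low dose library lay below all 8 controls, as did 5 middle dose and 7 high dose libraries.

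By day, the middle dose difference of miR-210-5p was -0.59 ± 0.27 on day 3 (adjusted p 0.0888), -1.08 ± 0.27 on day 7 (adjusted p 0.00153) and -1.05 ± 0.29 on day 14 (adjusted p 0.00652). The high dose difference was -0.63 ± 0.27 on day 3 (adjusted p 0.0645), -2.03 ± 0.29 on day 7 (adjusted p 5.86e-07) and -1.12 ± 0.31 on day 14 (adjusted p 0.00545). So miR-210-5p fell at both doses on days 7 and 14, and on day 3 did not pass at either. On days 3, 7 and 14, the share of all miRNAs that were called lower was 18%, 23.8% and 10.1% at the middle dose and 16.2%, 27.7% and 13.4% at the high dose. The day 14 calls rest on control replicate 2 with its 13.0 CPM: without it the middle dose difference was -0.49 (adjusted p 0.399) and the high dose difference -0.55 (adjusted p 0.313). Day 3 depends on control replicate 3 with its 5.72 CPM, without which both doses passed, at -0.82 for the middle dose (adjusted p 0.0228) and -0.88 for the high dose (adjusted p 0.0135).

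The low dose gave miR-210-5p differences from control of 0.28 ± 0.25 on day 3 (adjusted p 0.90), -0.22 ± 0.25 on day 7 (adjusted p 0.486) and -0.30 ± 0.29 on day 14 (adjusted p 0.999). On day 7 the low dose 95% interval was -0.74 to 0.30. It overlapped the middle dose interval of that day (-1.64 to -0.52). It lay above the high dose interval (-2.61 to -1.44), and all of these use the same day 7 controls. At the low dose on day 7, 18.6% of all miRNAs were called lower, against 0% on day 3 and 0% on day 14. Low dose day 7 set against the low dose on days 3 and 14, with no control library in the comparison, gave 0.21 ± 0.22 for miR-210-5p (adjusted p 0.521), where 30.2% of miRNAs passed in either direction.

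The doses were also compared directly with each other; of these comparisons, only the high against the middle dose was planned, and the rest were added once the data had been examined. miR-210-5p fell by 1.18 ± 0.16 at the high against the low dose over all days (adjusted p 3.81e-07; 27.1% of miRNAs called lower). It fell by 0.83 ± 0.16 at the middle against the low dose (adjusted p 7.30e-05; 20.4% called lower). On day 7 alone it fell by 1.81 ± 0.29 at the high against the low dose (adjusted p 3.35e-05, 17.1% called lower). The middle against the low dose on day 7 gave -0.86 ± 0.27 (adjusted p 0.0387; 7.93% called lower), and this call was lost under 5 of the 9 other settings and when any 1 of the 6 libraries compared was left out (adjusted p up to 0.194). Between the high and the middle dose the difference was -0.35 ± 0.17 over all days, with a 95% interval of -0.70 to -0.0046 (p 0.0472, adjusted p 0.137; 9.45% called lower).

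**Figure D2:**
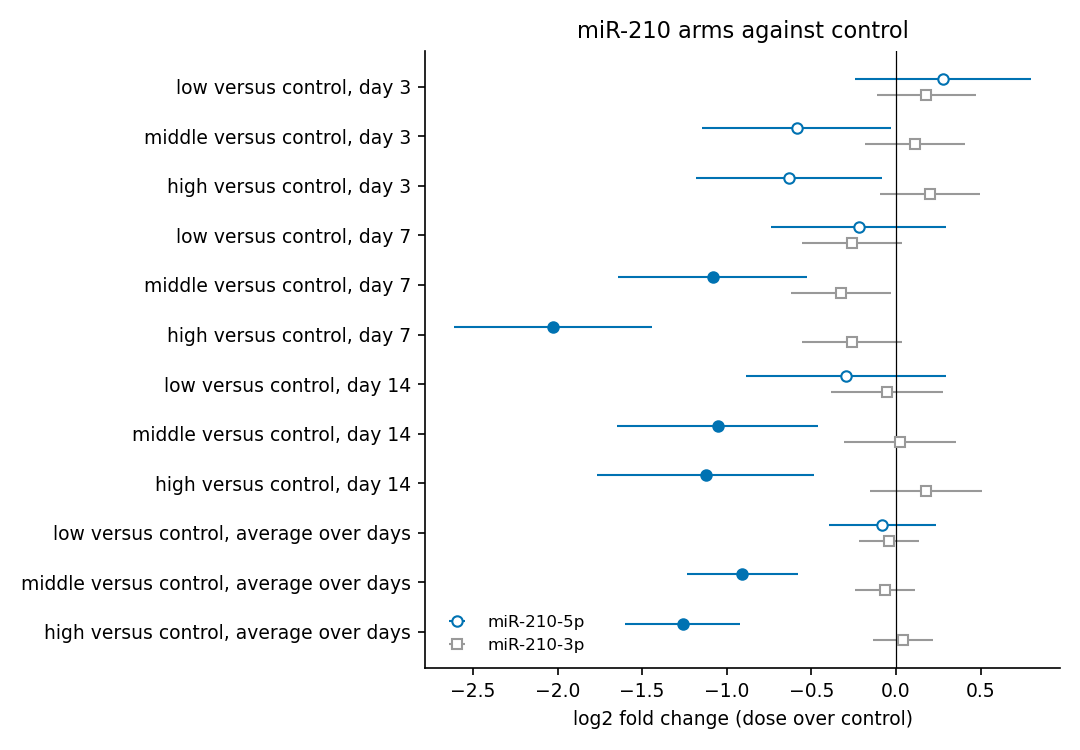
Log2 fold change from control for miR-210-5p (circles) and miR-210-3p (squares), by dose and day and averaged over days, with 95% intervals; filled symbols have an edgeR adjusted p under 0.05. The miR-210-5p averages lie at -0.08 for the low dose, -0.91 for the middle dose and -1.26 for the high dose, and those of miR-210-3p lie between -0.06 and 0.04.

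miR-210-3p, the abundant arm, spanned a narrow range. On day 3 it stood at 163.5, 179.0 and 136.7 CPM in controls, 192.1, 178.9 and 172.0 CPM at the low dose, 163.6, 199.8 and 153.8 CPM at the middle dose, and 160.8, 212.6 and 177.0 CPM at the high dose. On day 14 it stood at 145.0 and 188.7 CPM in controls, 154.4, 154.6 and 174.0 CPM at the low dose, 160.2, 153.4 and 195.0 CPM at the middle dose, and 188.1, 214.3 and 164.2 CPM at the high dose. The groups overlapped on both days. On day 7 the values were 180.2, 201.8 and 196.5 CPM in controls, 173.7, 155.7 and 154.3 CPM at the low dose, 143.0, 144.8 and 174.2 CPM at the middle dose, and 153.6, 161.9 and 168.1 CPM at the high dose. All 9 treated libraries of day 7 lay below the 3 controls, at every dose.

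Averaged over days, the difference of miR-210-3p from control was -0.04 ± 0.09 at the low dose (95% interval -0.22 to 0.13, adjusted p 0.746), -0.06 ± 0.09 at the middle dose (-0.24 to 0.11, adjusted p 0.546) and 0.04 ± 0.09 at the high dose (-0.14 to 0.22, adjusted p 0.717). The middle and high dose intervals exclude the falls estimated for miR-210-5p at those doses. On day 7 the differences were -0.26 ± 0.14 at the low dose (adjusted p 0.156), -0.32 ± 0.15 at the middle dose (adjusted p 0.0608) and -0.26 ± 0.14 at the high dose (adjusted p 0.134). On day 7 DESeq2 called the low dose, at -0.35 (adjusted p 0.0324), and the middle dose, at -0.33 (adjusted p 0.0409). The day 7 controls were themselves at 192.8 ± 11.2 CPM, against 159.7 ± 21.4 CPM in day 3 controls (SD, n = 3 each), a difference of 0.27 ± 0.14 that did not pass (adjusted p 0.283). miR-210-5p in the same controls differed by 0.53 ± 0.26 between day 7 and day 3 (adjusted p 0.220), where 1.52% of miRNAs were called in either direction.

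In the order of group means, miR-210-3p ran from 154.0 CPM at the middle dose on day 7 to 192.8 CPM in controls of day 7, and the library ranges of all neighbours overlapped.

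A ratio of the arms within a library does not depend on the scaling between libraries. Reads of the 5p arm made up 5.39 ± 0.95% of the hairpin's reads in controls (SD, n = 8, range 4.01 to 6.65%) and 5.34 ± 0.88% at the low dose (SD, n = 9, range 3.34 to 6.47%). The share was 3.18 ± 0.66% at the middle dose (SD, n = 9, range 2.40 to 4.21%) and 2.33 ± 0.55% at the high dose (SD, n = 9, range 1.60 to 3.12%). These mean shares correspond to 17.6 reads of miR-210-3p per read of miR-210-5p in controls, 17.7 at the low dose, 30.5 at the middle dose and 41.8 at the high dose. By group mean the share was lowest at the high dose on day 7, with libraries at 1.79, 2.0 and 1.60%, against 5.40, 5.71 and 6.65% in the controls of that day. High dose day 14 replicate 1, at 1.77%, lay within the range of those high dose libraries. All 9 high dose libraries and 7 of the 9 middle dose libraries lay below all 8 controls. How many other hairpins separate in this way was not counted. On single libraries the exact 95% binomial intervals are wide and cover counting error only. The reads carry no stated molecular identifiers, so repeat copies of a molecule could not be set apart.

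**Figure D3:**
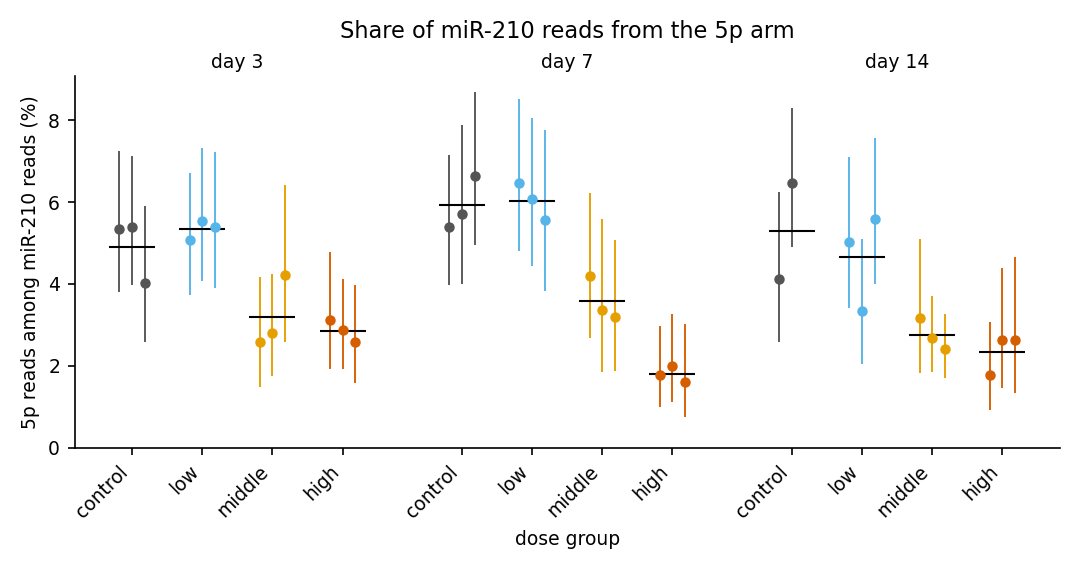
Share of miR-210 reads from the 5p arm, in percent, for every library by day and dose; bars are exact 95% binomial intervals on the reads and dashes are group means. The 9 high dose libraries lie between 1.60 and 3.12%, below the 8 controls at 4.01 to 6.65%. How many other hairpins separate so was not counted.

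The log2 ratio of 5p to 3p reads at the low dose differed from control by -0.01, averaged over days (exact two-sided permutation test of dose labels within day, p 0.949, adjusted p 0.949 over 5 comparisons). The middle dose differed from control by -0.78 in the same exact test (p 0.0005, adjusted p 0.00125). The high dose differed from control by -1.24 (exact p 0.00025, the smallest that the 4000 arrangements allow, adjusted p 0.00125). The high dose differed from the middle dose by -0.45 (exact p 0.0168, adjusted p 0.0279). That last difference rests on day 7 and on 1 library: it was -0.18 over days 3 and 14 alone (adjusted p 0.419) and -0.38 without middle dose day 3 replicate 3 (adjusted p 0.0546). Low dose day 7 differed from the other low dose days by 0.30 (exact p 0.131, adjusted p 0.164). Without low dose day 14 replicate 2, which had the lowest low dose share at 3.34%, this difference was 0.19 and passed (adjusted p 0.0446). In a further pair of comparisons, also added later, the ratio at the high dose was below that at the low dose by a log2 difference of -1.23, and the middle dose differed from the low dose by -0.77 (exact p 0.00025 each, adjusted p 0.00025 over these 2). All 9 high dose libraries and 6 of the 9 middle dose libraries lay below all 9 low dose libraries, and other hairpins were not counted for this either.

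The other hairpins give the background for this ratio. Of the 96 hairpins with both arms tested, 52 had a lower 5p to 3p ratio at the high dose than in controls, with a median log2 change of -0.10 and a range of -3.70 to 3.76. Counted from the most negative end, miR-210 was number 53 at the low dose, number 19 at the middle dose and number 14 at the high dose. Its neighbours in the high dose order were miR-342, at -1.26, and miR-16, at -1.15. For low dose day 7 against the other low dose days, these neighbours changed by -2.40 for miR-342 and -0.78 for miR-16, while miR-210 changed by 0.30 and was number 72 of 96. In that comparison 56 of the 96 hairpins had a change below 0, with a median of -0.13, so a change not below 0 was not particular to miR-210. The scarcer arms of the neighbours averaged only 1.63 CPM (miR-342-5p) and 2.76 CPM (miR-16-3p). These places are a description with no test.

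**Figure D4:**
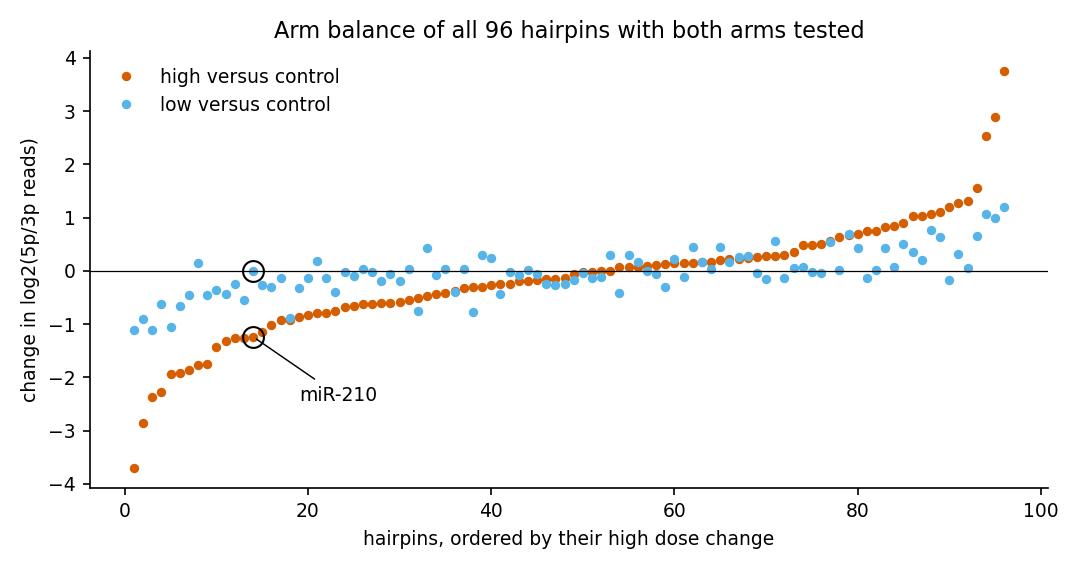
Change in the log2 ratio of 5p to 3p reads for the 96 hairpins with both arms tested, ordered by the high dose average; orange points are high dose against control, blue points low dose against control, and miR-210 is circled. miR-210 lies at -1.24 for the high dose and -0.01 for the low dose.

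Likeness between the arms was low. Across the 12 group means of log2 CPM, which share libraries and depth, Pearson's r between the arms was 0.159, and across the 35 libraries it was 0.281. The miRNAs with the pattern most like miR-210-5p over the 12 groups were miR-542-5p (r = 0.92), miR-201-5p (r = 0.911) and miR-141-3p (r = 0.901), with means of 15.3, 9.76 and 57.2 CPM. Over the 35 libraries their r with miR-210-5p was lower, at 0.739, 0.636 and 0.665. These 3 miRNAs were chosen by their likeness over the same groups, so their changes are not a test separate from that choice. In the high dose average miR-542-5p fell by 0.80 ± 0.13, miR-201-5p by 0.82 ± 0.26 and miR-141-3p by 1.17 ± 0.19. In that average 31.4% of all miRNAs were called lower. At the low dose on day 7, miR-542-5p fell by 0.53 (adjusted p 0.0353), while miR-201-5p was at -0.15 (adjusted p 0.780) and miR-141-3p at -0.62 (adjusted p 0.110). For miR-210-3p the closest patterns were looser: miR-598-3p (r = 0.652), miR-455-5p (r = 0.64) and miR-106b-3p (r = 0.631), with r of 0.329, 0.485 and 0.373 over the 35 libraries.

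**Figure D5:**
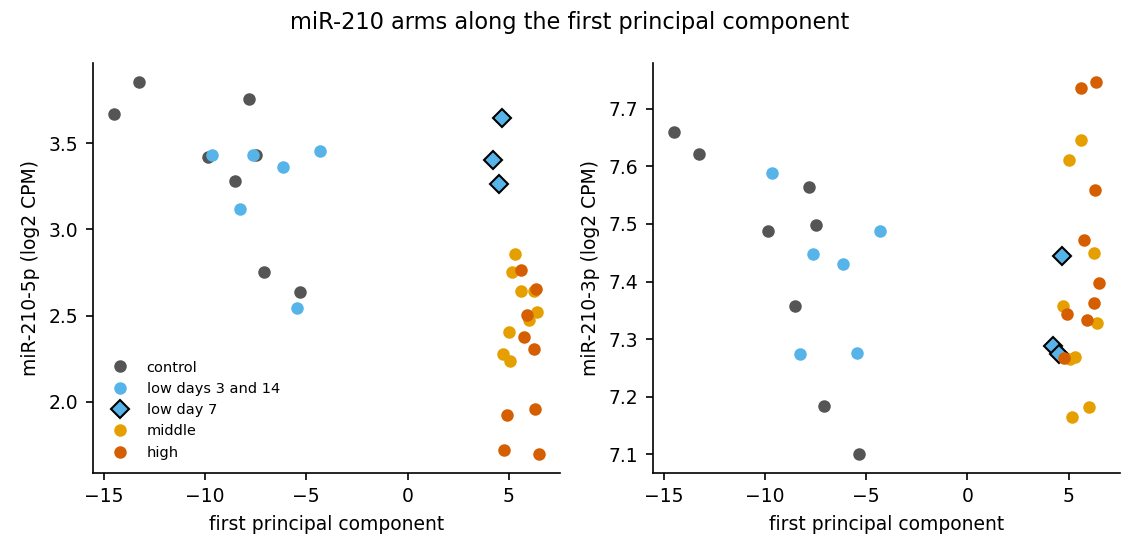
Log2 CPM of miR-210-5p and miR-210-3p in the 35 libraries against the first principal component of all tested miRNAs; diamonds are the low dose on day 7. These 3 libraries lie at 4.24 to 4.67 on the component, on the side of the middle and high doses, whose lowest library lies at 4.70. They had 9.09 to 12.0 CPM of miR-210-5p, against 2.74 to 6.76 CPM in the middle and high dose libraries.

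Other miRNAs tied to hypoxia moved both ways. Of 13 miRNAs reported to be induced by hypoxia in cultured cells, other than miR-210, 2 rose and none fell in the low dose average, where 22.6% of all tested miRNAs were called in either direction, but on day 7 of the low dose 3 rose and 6 fell (45.1% called). At the middle dose 3 rose and 7 fell (61.9% called), and at the high dose 4 rose and 7 fell (62.8% called). Their median at the high dose was -0.24, against -0.04 over all tested miRNAs. At that dose miR-26b-5p rose by 0.79 ± 0.08 and miR-107-3p by 0.68 ± 0.09, whereas miR-23b-3p fell by 0.75 ± 0.09, miR-24-3p by 0.67 ± 0.09, miR-21-5p by 0.53 ± 0.11 and miR-27a-3p by 0.39 ± 0.07. The list thus had called members in both directions at low dose day 7, where neither miR-210 arm passed in edgeR.

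Of 9 miRNAs reported to act on HIF subunits or on the machinery that degrades HIF, none passed in the low dose average (22.6% of all miRNAs called), while 1 rose and 2 fell at the low dose on day 7 (45.1% called). At the middle dose 2 rose and 4 fell (61.9% called), and at the high dose 3 rose and 4 fell (62.8% called). The 6 of 9 at the middle dose is near the share over all miRNAs. The list's median at the high dose was -0.30, against -0.04 over all tested miRNAs. miR-322-5p, reported to act on the ubiquitin ligase scaffold that destabilises HIF, fell by 0.86 ± 0.08 at the high dose (adjusted p 1.10e-10). miR-31a-5p fell by 0.52 ± 0.10 and miR-17-5p by 0.45 ± 0.09. miR-107-3p, which is in both lists, rose as above, as did miR-429 by 0.54 ± 0.17 and miR-20a-5p by 0.42 ± 0.11.

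Marker miRNAs of liver cell types were read beside these results. In bulk liver, fewer cells of a type and less of a miRNA per cell cannot be told apart. Both endothelial markers, miR-126a-3p and miR-126a-5p, fell in the high dose average (by 0.76 ± 0.09 and 0.52 ± 0.06), the middle dose average and at the low dose on day 7. Of all tested miRNAs, 31.4%, 29.9% and 18.6% were called lower in these comparisons, in that order. Their summed level was 28706 to 37855 CPM in controls, 27520 to 34819 CPM at the low dose on days 3 and 14, 24377 to 25945 CPM at the low dose on day 7, 20376 to 25148 CPM at the middle dose and 18909 to 22701 CPM at the high dose. At low dose day 7, miR-126a-3p was at -0.90 and miR-126a-5p at -0.29, while miR-210-5p was at -0.22 and did not pass. The interval of miR-210-5p there, -0.74 to 0.30, holds the value of miR-126a-5p and not that of miR-126a-3p. A fall in miR-210-5p as large as that of miR-126a-5p was therefore not excluded. In the high dose average 62.8% of all miRNAs were called in either direction. Of the other lists in that average, 1 rose and 4 fell of 5 hepatocyte markers, 1 and 3 of 6 white blood cell markers, 1 and 1 of 4 red blood cell markers, 2 and 3 of 6 stellate and smooth muscle markers, and 1 and 2 of 5 bile duct markers, which include miR-141-3p. The called shares of the white blood cell, red blood cell and bile duct lists are near that of all miRNAs. White blood cell markers summed to 4168 to 5270 CPM at low dose day 7, against 1553 to 2208 CPM in controls of that day. Of the 6, 3 rose and 0 fell there, where 45.1% of all miRNAs were called in either direction. The most abundant of them, miR-142-5p, rose by 1.73, while miR-142-3p from the same hairpin was at 0.04 (edgeR adjusted p 0.902). Every marker had reads in every group, and the part of cell composition in the miR-210-5p result was not tested.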

How the data were processed

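Small RNA from 35 rat liver samples was measured by sequencing (RNeasy Plus Universal Mini and Illumina TruSeq Small RNA kits, per the labels' protocols). The authors deposited raw read counts per mature miRNA, not normalized, in 37 columns; the build was rn6 per the submitters' processing notes, while aligner, counting program and miRNA release were not given in the sources used here. The 2 runs of middle dose day 14 replicates 2 and 3 were summed. Sequences and coordinates are RefSeq's on GRCr8, so the counted reads were not placed on them; the fold is RNAfold 2.7.2.

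Of 763 miRNAs, 328 passed filterByExpr (minimum count 10, minimum total 15) and were fitted in edgeR 4.0.16 (R 4.3.3) with TMM scaling, 1 mean per group over 35 libraries, 23 residual degrees of freedom and the robust quasi-likelihood F-test. CPM are per TMM-scaled library. p-values were adjusted by Benjamini-Hochberg over the 328 within each of 16 planned and 10 added comparisons, with a threshold of 0.05. Arm ratios had 0.5 added to each arm and were tested by exact two-sided permutation. Principal components used log2 CPM with a prior count of 2. The steps were tested on simulated counts.

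Replicates differed by more than counting noise (chi-square per degree of freedom at least 34.8 over 34 pairs, against at most 8.09 between runs), so none was taken as deposited repeatedly. The members, gene lists and comparisons were chosen with earlier results of these data known. The named miRNAs are both arms, the 3 closest in pattern to each arm, up to 6 called members of each hypoxia list, and the neighbouring hairpins; miR-126a-3p and miR-126a-5p were named as cell type markers after their values were seen. Alternatives were DESeq2 1.42.0, its size factors, library size alone, no filter, only the days compared, thinning, each run alone, the replicate number as a block, each library left out, and averages without day 7 (added after the data were examined).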

Additional observations from a re-analysis of the deposited data

Results flagged for a closer look

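The effect of the high dose on miR-210-5p was compared between durations: the day 7 difference from control minus the day 3 difference was -1.39 ± 0.39 on the log2 scale (edgeR p 0.00129). It did not pass after adjustment over the 328 miRNAs (adjusted p 0.138). No miRNA passed in that comparison in edgeR or in DESeq2, and 36 had an unadjusted p under 0.05. Without control day 7 replicate 1 the value was -1.39 and passed (adjusted p 0.0465); over the other 20 settings the adjusted p ran from 0.108 to 0.582. The same difference was -0.50 ± 0.36 at the low dose (adjusted p 0.304) and -0.50 ± 0.39 at the middle dose (adjusted p 0.620).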

How the results depend on the processing

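The dose averages of miR-210-5p kept their direction and passed under all 26 alternatives, at -1.46 to -0.88 for the high dose (adjusted p up to 0.00068) and -1.13 to -0.74 for the middle dose (adjusted p up to 0.00123). Other results changed a call or a sign. Under library size alone, which moved the median of all miRNAs to -0.11 at the high and -0.17 at the middle dose average, miR-210-3p was at -0.0364 for the high average, -0.20 for the middle average (passing), -0.00120, -0.42 (passing) and -0.19 for the middle dose on days 3, 7 and 14, -0.00769 for the high dose on day 14 and -0.0384 for control day 14 against day 3; miR-210-5p passed on day 3 at -0.66 for the high and -0.71 for the middle dose. DESeq2's size factors and DESeq2 each gave miR-210-3p -0.35 at the low dose on day 7 (passing) and values of -0.0424 and -0.0428 at the middle dose on day 14, and DESeq2 gave -0.33 at the middle dose on day 7 (passing). The middle dose on day 14 was also below 0 with no filter (-0.0275) and with that day's libraries alone (-0.0114). Thinned counts gave miR-210-3p 0.0177 for the low dose on day 14, -0.0114 for the middle dose on day 3 and -0.00465 for control day 14 against day 3. Without day 7, its averages were 0.0666 at the middle and 0.0636 at the low dose, and the arm ratio of high against middle dose was -0.18. The cause of these changes was not tested.

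Leaving out 1 library gave miR-210-3p -0.0789 to 0.12 for the high average, -0.20 to 0.0138 for the low average, -0.0318 to 0.20 and -0.41 to -0.30 for the middle dose on days 3 and 7, -0.27 to 0.20, -0.27 to 0.15 and -0.16 to 0.31 for the low, middle and high dose on day 14, and -0.16 to 0.28 for control day 14 against day 3. It gave miR-210-5p -0.88 to -0.47 and -0.82 to -0.45 for the high and middle dose on day 3, -0.76 to 0.39, -1.58 to -0.49 and -1.69 to -0.55 for the low, middle and high dose on day 14, -0.32 to 0.12 for the low average, -0.0478 to 0.29 for low dose day 7 against its other days and -0.44 to 0.67 for control day 14 against day 3. The day 14 effect minus that of day 3 ran from -0.98 to 0.20, -0.93 to 0.18 and -1.02 to 0.10 for the low, middle and high dose. The arm ratio ran from -0.12 to 0.10 for the low average, -0.50 to -0.38 for high against middle and 0.19 to 0.36 for low dose day 7. Leaving out control day 14 replicate 1 or 2 set most of the extremes that involve day 14 controls.

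Replicate numbers did not pair libraries: 14 of 51 same-numbered pairs within a day had a correlation of deviations over 0.1, the mean was -0.00911, and 9 of 35 libraries were closest to one of their own number. With the replicate number as a block, miR-210-5p was at -1.28 at the high and -0.93 at the middle dose average, and the arm ratio of high against middle was -0.45 and no longer passed (adjusted p 0.104). Counts of called miRNAs moved by over 1.5 times in several comparisons, and not every such value is listed. Low against control on day 3 had 0, against up to 2 with 1 library left out. Control day 14 against day 3 and the middle effect on day 14 minus day 3 each had 0, against up to 1 with 1 library left out. Control day 7 against day 3 had 5, against 3 with DESeq2's size factors, 1 with no filter, 1 on those days alone, 2 thinned, 15 in DESeq2, 0 with the block and 62 without control day 7 replicate 1. The low average had 74, against 0 without day 7 and 115 without that library; high against middle had 57, against 30 without day 7. The high effect on day 7 minus day 3 had 0, against 19 without that library, and the middle effect 1, against 2 in DESeq2 and 37 without it. Middle against low on day 7 had 33, against 20 with no filter, 19 on that day alone and 13 without middle dose replicate 3; high against low on day 7 had 79, against 45 with no filter and 49 without high dose replicate 3. The share of calls that were lower moved with scaling: with library size alone it was 58.7% in the middle average, 58.7% for the high and 62.1% for the middle dose on day 14 and 61.3% for the middle dose on day 3, 65.2% for middle against low and 31.9% for high against middle, against 48.3, 37.9, 35.5, 47.2, 45.9 and 54.4% with TMM. With DESeq2's size factors it was 40.7% in the low average, 47.7% for low dose day 7 against its other days, 46.0% for high against low and 51.4% for middle against low on day 7, against 27.0, 25.3, 70.9 and 78.8% with TMM. The depth limits miR-210-5p, with at most 56 reads in a library.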
